A study of Homo sapiens with 18 samples.

Results

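The 10 genes described here encode the NF-kB transcription factors and the inhibitors that hold them back. They are the 5 subunit genes NFKB1, NFKB2, REL, RELA and RELB, the IkB genes NFKBIA, NFKBIB and NFKBIE, the deubiquitinase gene TNFAIP3 and the IkB-like co-regulator gene BCL3. They were taken by gene symbol from 26485 symbols counted per library, and all 10 were present and passed the filter on low counts. The counts came from poly(A) RNA of 3 human pancreatic cancer cell lines, BxPC3, Panc327 and SUIT2. Cells of each line received 100 nM THZ1, a covalent inhibitor of the transcription kinase CDK7, or the solvent DMSO, in both cases for 6 h. The 6 groups, in each line THZ1 and then DMSO, had 3 libraries each, 18 in all. The labels give no genotype for the lines and do not say whether the 3 libraries of a group came from separate cultures, so the p-values measure the spread between these libraries, which may be technical.

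In resting cells NF-kB dimers are kept in the cytoplasm by IkB proteins, and the precursor proteins of NFKB1 and NFKB2 also have IkB-like repeats. Signals from TNF, IL-1 or Toll-like receptors activate a kinase complex that marks IkB for destruction, while a slower route processes the NFKB2 precursor and releases RELB. Freed dimers then switch on NFKBIA, TNFAIP3, NFKB2, RELB and other members themselves, which makes the family a feedback circuit, and in pancreatic cancer the pathway is known for its ties to inflammation and cell survival.

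On GRCh38, by GENCODE 29, the subunit genes are NFKB1 (chr4:102501329-102617302, plus strand), NFKB2 (chr10:102394110-102402529, plus), REL (chr2:60881521-60931610, plus), RELA (chr11:65653596-65663094, minus) and RELB (chr19:45001430-45038198, plus). The inhibitor genes are NFKBIA (chr14:35401511-35404749, minus), NFKBIB (chr19:38899700-38908893, plus), NFKBIE (chr6:44258166-44265788, minus), TNFAIP3 (chr6:137867188-137883312, plus) and BCL3 (chr19:44747705-44760044, plus). Promoter windows of 300 bases, 250 before and 50 after an annotated start, were found for 8 of the 10 members in the RefSeq table for GRCh38.p14. The 8 were NFKB1, NFKB2, REL, RELA, NFKBIA, NFKBIB, TNFAIP3 and BCL3, with 13 windows between them. Windows of 5 genes are printed, a choice among those that rose or fell with THZ1 in both BxPC3 and Panc327 cells. With TMM scaling NFKB1 and NFKBIB were higher there, and NFKB2, RELA and NFKBIA were lower. Each is read 5′ to 3′ on the strand of its gene, and capitals mark every match, on either strand, to the kB consensus, the decamer that NF-kB dimers bind. Where matches overlap, they form 1 run of capitals.
NFKB1, chr4:102501109-102501408, plus strand: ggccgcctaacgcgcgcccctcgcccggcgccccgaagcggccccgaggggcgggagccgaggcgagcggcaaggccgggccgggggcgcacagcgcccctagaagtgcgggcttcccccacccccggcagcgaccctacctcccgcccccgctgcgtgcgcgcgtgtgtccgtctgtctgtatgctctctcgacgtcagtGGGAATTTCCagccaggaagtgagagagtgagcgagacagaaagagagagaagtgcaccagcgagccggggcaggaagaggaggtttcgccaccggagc
NFKBIB, chr19:38899719-38900018, plus strand: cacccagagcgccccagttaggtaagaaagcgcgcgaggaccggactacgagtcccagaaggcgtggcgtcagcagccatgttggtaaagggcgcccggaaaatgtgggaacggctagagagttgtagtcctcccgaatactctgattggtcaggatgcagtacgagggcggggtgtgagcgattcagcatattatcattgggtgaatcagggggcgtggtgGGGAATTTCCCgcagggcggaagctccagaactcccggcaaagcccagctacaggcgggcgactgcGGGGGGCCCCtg
NFKB2, chr10:102394328-102394627, plus strand: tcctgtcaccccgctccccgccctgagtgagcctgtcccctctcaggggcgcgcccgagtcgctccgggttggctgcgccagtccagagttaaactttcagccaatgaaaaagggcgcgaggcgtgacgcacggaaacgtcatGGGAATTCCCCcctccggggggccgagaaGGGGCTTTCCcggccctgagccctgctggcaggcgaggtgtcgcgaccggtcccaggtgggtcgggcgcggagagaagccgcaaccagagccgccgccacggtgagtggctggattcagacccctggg
NFKBIA, chr14:35404700-35404999, minus strand: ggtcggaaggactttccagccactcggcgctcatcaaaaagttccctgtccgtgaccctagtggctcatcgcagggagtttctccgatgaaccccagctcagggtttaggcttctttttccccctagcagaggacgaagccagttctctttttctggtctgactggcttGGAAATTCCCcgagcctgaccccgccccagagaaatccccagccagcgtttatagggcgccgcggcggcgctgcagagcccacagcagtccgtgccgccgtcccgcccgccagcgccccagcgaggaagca
RELA, chr11:65662867-65663166, minus strand: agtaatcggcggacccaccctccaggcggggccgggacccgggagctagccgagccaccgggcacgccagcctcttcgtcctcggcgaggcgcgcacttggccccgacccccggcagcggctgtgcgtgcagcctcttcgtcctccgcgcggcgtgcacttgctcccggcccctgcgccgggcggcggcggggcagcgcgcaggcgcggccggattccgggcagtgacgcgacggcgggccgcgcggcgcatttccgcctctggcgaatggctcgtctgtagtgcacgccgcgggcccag
At least 1 match was found for 7 of the 8 genes and in 8 of the 13 windows, against 11.3% of all 35116 RefSeq promoter windows. Positions are counted from the start annotated for each window, which can differ from the gene start above, with negative positions before it. The matches in the windows shown began at -49 in NFKB1, at -28, -27 and 38 in NFKBIB, at -107, -106 and -78 in NFKB2 and at -81 in NFKBIA. RELA had none in either of its windows. For NFKB1, NFKBIB and NFKB2 a window with matches was printed. Windows not printed, chr4:102501684-102501983 of NFKB1, chr19:38899416-38899715 of NFKBIB and chr10:102393860-102394159 of NFKB2, had 0 matches. Another NFKB2 window not printed, chr10:102395455-102395754, had matches too. REL also fell in both lines, and its window, chr2:60881324-60881623, is not printed either. That window had matches beginning at -47 and -46. A match describes the letters of the window and not a bound site.

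Gene counts summed to between 5626146 and 8631273 per library. Levels are given as CPM (counts scaled to a common library total) after composition scaling by TMM, which sets the typical gene at no change. Total RNA was not measured, and in bulk RNA fewer cells and less RNA per cell cannot be told apart. With scaling to library size alone the median log2 fold change of all genes was -0.35 in BxPC3 and -0.34 in Panc327, against 0.00 and -0.01 with TMM. Records of reads with several alignments were left out by the counting. They made up 22.8% ± 0.805 of all records (gene counts plus summary entries) in THZ1-treated BxPC3 cells and 12.8% ± 0.609 in DMSO-treated ones. In Panc327 cells they made up 52.8% ± 1.81 with THZ1 and 13.6% ± 0.149 with DMSO, and in SUIT2 cells 12.9% ± 0.902 and 13.2% ± 0.726 (SD, n = 3 each). Their part in the results for BxPC3 and Panc327 was not tested. All 6 epithelial markers averaged above 10 CPM in every group, with sums of 4683 to 10072 CPM per library. The 6 fibroblast markers summed to at most 85.0 CPM and the 4 endothelial ones to at most 18.7 CPM. Both highest sums were in THZ1-treated Panc327 cells, where COL1A1 averaged 70.1 CPM and VWF 17.7 CPM. Immune markers summed to 12.7 to 349 CPM, the upper values coming mostly from LYZ in SUIT2 cells (286 CPM with THZ1, 277 CPM with DMSO). CD68 averaged 9.3 CPM in DMSO-treated Panc327 cells and 21.5 to 44.9 CPM in the other groups. The pan-leukocyte marker PTPRC averaged at most 0.0658 CPM in any group.

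THZ1 changed most of the family in BxPC3 and Panc327 cells and no member passed the test in SUIT2 cells. RELB, NFKBIE, NFKB2 and RELA fell in both BxPC3 and Panc327 cells, and with TMM scaling NFKB1 and NFKBIB rose in both. NFKBIA and REL also fell in both, further in Panc327 than in BxPC3 cells, while BCL3 and TNFAIP3 fell in Panc327 and did not pass in BxPC3 cells. Of the 10 members, 2 were higher and 6 lower in BxPC3 cells, with a median log2 fold change of -0.28, at an edgeR adjusted p under 0.05. Of all 14011 genes tested there, 69.4% were called, 35.2% higher and 34.1% lower. In Panc327 cells 2 members were higher and 8 lower, with a median of -1.12, against 73.4% of all genes called, 35.6% higher and 37.8% lower. In SUIT2 cells 0 of 10 were called by edgeR, against 14.6% of all genes, 6.95% higher and 7.64% lower. DESeq2 also called 0 of the 10, and 1348 of all genes, against 2044 with edgeR. So many genes were called in BxPC3 and Panc327 cells that counts of 8 or 10 members called in either direction were close to the share of all genes. In these lines the 6 and 8 lower members stood above the 34.1% and 37.8% of all genes lower. The 2 higher members in each stood below the 35.2% and 35.6% of all genes higher. These gaps were not tested. In SUIT2 cells few genes were called at all, so 0 of 10 was also near the share of all genes. The members are therefore described by their sizes and directions.

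**Figure D1:**
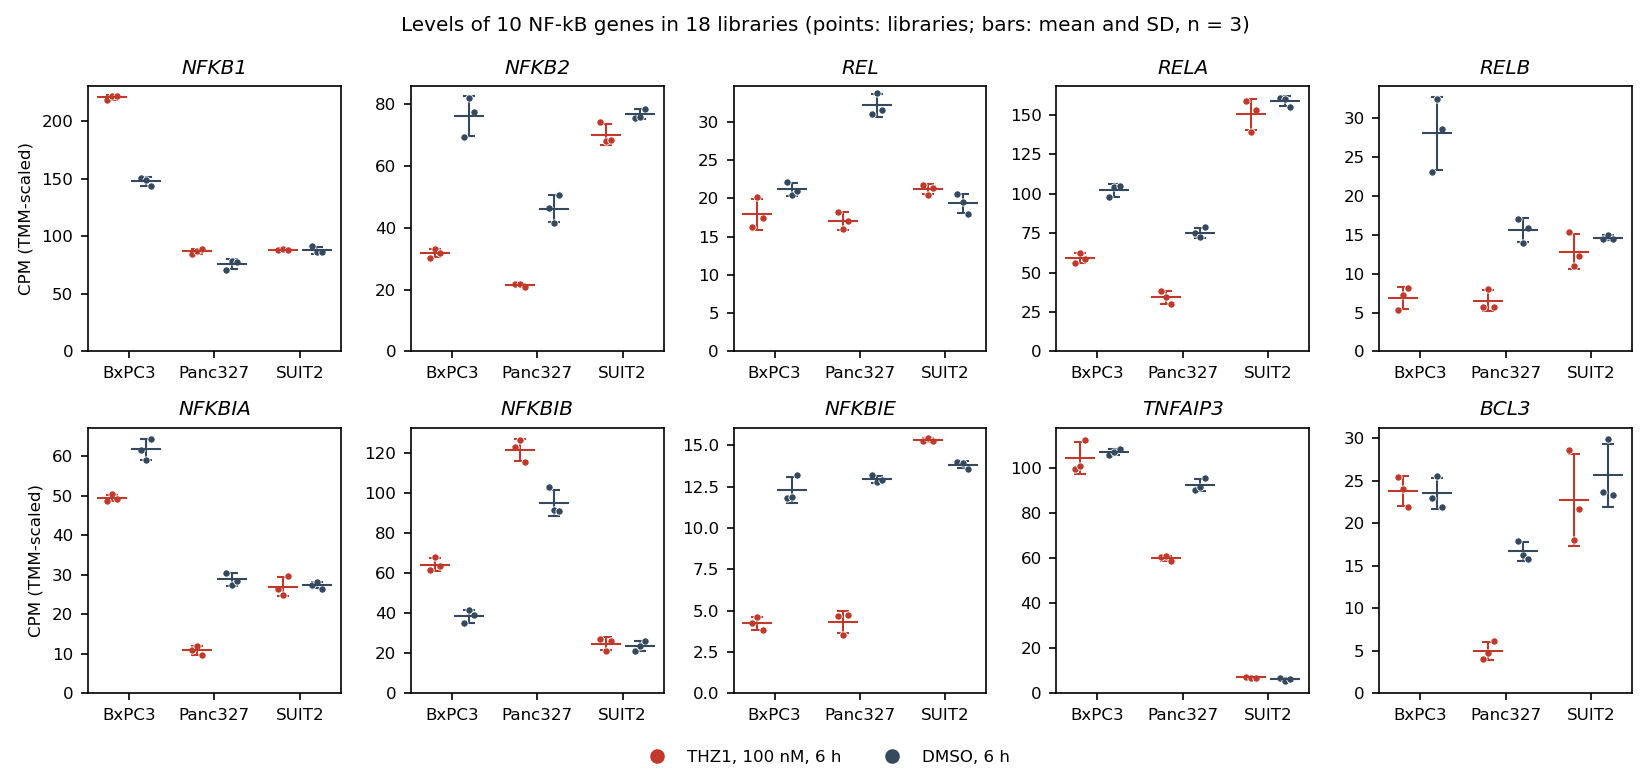
TMM-scaled CPM of each of the 10 genes (vertical axes, each starting at 0) in the 3 cell lines. Points are libraries, bars the mean and SD of 3, with THZ1 in red to the left of DMSO in dark blue. NFKB2, RELA, RELB and NFKBIE sit lower with THZ1 in BxPC3 and Panc327, NFKB1 and NFKBIB sit higher, and the 2 SUIT2 groups lie close together in every panel.

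Among the subunit genes, NFKB1, which encodes the p105 precursor of p50, was the one that rose. In BxPC3 cells the THZ1 libraries had 218, 222 and 222 CPM, against 150.4, 149 and 143 CPM in the DMSO libraries. The groups did not overlap, and the level was 1.5-fold higher (log2 fold change 0.58, SE 0.0488, edgeR adjusted p = 3.50e-19). In Panc327 cells the rise was smaller, with 84.9, 87.1 and 88.6 CPM in THZ1 libraries and 70.9, 78.3 and 78 CPM in DMSO libraries (log2 fold change 0.20, SE 0.0603, edgeR adjusted p = 0.00261). That smaller rise depended on the scaling: with library size alone it turned to -0.13 (edgeR adjusted p = 0.0464), while the BxPC3 rise kept its direction and call. SUIT2 cells had 87.8, 89 and 88.2 CPM with THZ1 and 91.3, 86 and 86.3 CPM with DMSO, which overlapped.

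NFKB2, which encodes the p100 precursor of p52 in the slower pathway, went the other way. THZ1-treated BxPC3 libraries held 30.4, 33.2 and 31.9 CPM, against 69.4, 82.2 and 77.5 CPM with DMSO. No THZ1 library reached the lowest DMSO library, and the level was 2.4-fold lower (log2 fold change -1.26, SE 0.0776, edgeR adjusted p = 3.98e-27). Panc327 cells gave nearly the same fold, with 21.7, 21.7 and 20.9 CPM in THZ1 libraries and 46.6, 41.7 and 50.5 CPM in DMSO libraries (2.16-fold lower, log2 fold change -1.11, SE 0.0931, edgeR adjusted p = 2.80e-19). SUIT2 libraries had 74.3, 68 and 68.4 CPM with THZ1 and 75.7, 76.1 and 78.7 CPM with DMSO. The SUIT2 groups did not overlap, but the difference of -0.13 missed the threshold (unadjusted p = 0.0454, edgeR adjusted p = 0.173). The ratio of NFKB2 to NFKB1 counts within a library, which no scaling can change, averaged 0.144 ± 0.0052 with THZ1 and 0.518 ± 0.0495 with DMSO in BxPC3 cells. It was 0.247 ± 0.00998 with THZ1 and 0.612 ± 0.0689 with DMSO in Panc327 cells, and 0.795 ± 0.0442 and 0.875 ± 0.0425 in SUIT2 cells (SD, n = 3 each).

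RELA, RELB and REL encode the subunits that carry a transactivation domain. RELB, the partner of p52, had the steepest loss of any member in BxPC3 cells, with 5.34, 7.25 and 8.14 CPM in THZ1 libraries, against 23.1, 32.5 and 28.7 CPM in DMSO libraries. The highest THZ1 library stayed below the lowest DMSO library, a 4.06-fold difference (log2 fold change -2.02, SE 0.144, edgeR adjusted p = 1.86e-22). In Panc327 cells RELB had 5.73, 8.07 and 5.72 CPM with THZ1 and 17.1, 13.9 and 15.8 CPM with DMSO (2.41-fold lower, log2 fold change -1.27, SE 0.168, edgeR adjusted p = 1.38e-10). RELA, the p65 subunit of the classical dimer, had 56.4, 62.4 and 58.3 CPM in THZ1-treated BxPC3 cells, against 97.6, 104 and 105 CPM with DMSO. Its groups were far apart relative to their spread (log2 fold change -0.79, SE 0.0651, edgeR adjusted p = 1.03e-19). Panc327 cells showed a larger fall of RELA, to 38.2, 34.8 and 30.2 CPM with THZ1, against 75, 72.4 and 78.6 CPM with DMSO (2.18-fold lower, log2 fold change -1.13, SE 0.0766, edgeR adjusted p = 1.76e-24).

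REL, which encodes c-Rel, fell much further in Panc327 than in BxPC3 cells. THZ1-treated Panc327 cells had 18.2, 15.9 and 17 CPM, against 31, 33.8 and 31.5 CPM with DMSO, a 1.88-fold fall (log2 fold change -0.91, SE 0.104, edgeR adjusted p = 3.98e-13). In BxPC3 cells the values were 16.2, 20.2 and 17.4 CPM with THZ1 and 22.1, 20.5 and 21 CPM with DMSO, which lay next to each other without overlap. The BxPC3 difference of -0.24 was just past the threshold (SE 0.108, edgeR adjusted p = 0.0423). It was lost with RLE scaling (-0.20), with DESeq2 (-0.20), and without DMSO replicate 1 (-0.21) or 3 (-0.25) or THZ1 replicate 1 (-0.18) or 3 (-0.22). The annotated exons of REL share 5702 bases with a noncoding RNA on the same strand. That RNA is not among the counted symbols, so its reads may have been counted as REL.

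SUIT2 cells, which had the most RELA of the 3 lines, kept these subunits near their DMSO levels. RELA was at 159, 139 and 153 CPM with THZ1 and 161, 159.9 and 155 CPM with DMSO, REL at 21.2 ± 0.646 and 19.4 ± 1.27 CPM, and RELB at 12.9 ± 2.24 and 14.6 ± 0.321 CPM (SD, n = 3 each). Each of these pairs overlapped. The 95% intervals of the log2 differences ran from -0.18 to 0.03 for RELA, -0.06 to 0.33 for REL and -0.43 to 0.08 for RELB, so falls of the size seen in Panc327 lay outside them.

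The IkB genes split. NFKBIA encodes IkBα, the fast feedback inhibitor. It had 11.1, 12 and 9.67 CPM in THZ1-treated Panc327 cells, against 30.6, 27.6 and 28.5 CPM with DMSO. The 2 groups were widely separated (2.64-fold lower, log2 fold change -1.40, SE 0.116, edgeR adjusted p = 1.23e-19). In BxPC3 cells NFKBIA had 48.7, 50.4 and 49.3 CPM with THZ1 and 61.7, 59.2 and 64.4 CPM with DMSO, a 1.25-fold difference without overlap (log2 fold change -0.32, SE 0.0722, edgeR adjusted p = 5.55e-05). Measured against RELA in the same library, NFKBIA counts moved in opposite directions in these lines. The ratio of NFKBIA to RELA counts was 0.839 ± 0.0291 with THZ1 and 0.605 ± 0.0338 with DMSO in BxPC3 cells, but 0.319 ± 0.0272 with THZ1 and 0.384 ± 0.0227 with DMSO in Panc327 cells (SD, n = 3 each).

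NFKBIE encodes IkBε and had the lowest level per length of the 3 IkB genes in every group. It had 4.27, 4.6 and 3.82 CPM in THZ1-treated BxPC3 cells and 11.8, 11.9 and 13.2 CPM with DMSO (2.91-fold lower, log2 fold change -1.54, SE 0.171, edgeR adjusted p = 1.61e-13). Panc327 cells had 4.69, 3.52 and 4.74 CPM with THZ1 and 13.2, 12.8 and 12.9 CPM with DMSO, almost the same fold (2.97-fold lower, log2 fold change -1.57, SE 0.172, edgeR adjusted p = 7.70e-14). These levels rest on as few as 17 counts in a library. SUIT2 cells had 15.2, 15.4 and 15.3 CPM with THZ1 and 14, 13.9 and 13.6 CPM with DMSO, higher in all 3 THZ1 libraries without passing the test (log2 difference 0.15, edgeR adjusted p = 0.43).

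NFKBIB encodes IkBβ, the inhibitor that is not part of the fast feedback. It rose where NFKBIA and NFKBIE fell. In BxPC3 cells it had 61.5, 67.9 and 63.5 CPM with THZ1 and 34.9, 41.4 and 39.3 CPM with DMSO, with no overlap (1.67-fold higher, log2 fold change 0.74, SE 0.0774, edgeR adjusted p = 2.13e-14). In Panc327 cells it had 123, 126 and 116 CPM with THZ1 and 103, 91.4 and 91 CPM with DMSO (1.28-fold higher, log2 fold change 0.36, SE 0.0619, edgeR adjusted p = 2.98e-07). With library size alone the Panc327 rise shrank to 0.03 and was not called (edgeR adjusted p = 0.67). The ratio of NFKBIB to NFKBIA counts, free of scaling, was 1.3 ± 0.0437 with THZ1 and 0.625 ± 0.0682 with DMSO in BxPC3 cells, and 11.2 ± 0.726 and 3.29 ± 0.0852 in Panc327 cells (SD, n = 3 each). In SUIT2 cells that ratio was 0.917 ± 0.0917 with THZ1 and 0.866 ± 0.106 with DMSO, within the spread. NFKBIB overlaps SIRT2 on the opposite strand by 40 exonic bases, and whether the counting used strand is not given in the sources used here.

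TNFAIP3 encodes A20, which edits ubiquitin chains on signalling proteins upstream of the IkB kinases, and BCL3 binds p50 and p52 dimers in the nucleus. Both fell in Panc327 cells and neither passed in BxPC3 cells. BCL3 had 3.99, 4.76 and 6.12 CPM in THZ1-treated Panc327 cells and 18, 16.3 and 15.8 CPM with DMSO, the largest fold among the members in that line (3.39-fold lower, log2 fold change -1.76, SE 0.186, edgeR adjusted p = 6.91e-13). The BxPC3 values were 25.4, 24 and 21.9 CPM with THZ1 and 23, 25.6 and 22 CPM with DMSO, and they overlapped (log2 difference 0.01, 95% interval -0.22 to 0.25). TNFAIP3 had 60.6, 60.8 and 58.8 CPM in THZ1-treated Panc327 cells and 90.2, 91.7 and 95.7 CPM with DMSO (log2 fold change -0.62, SE 0.0646, edgeR adjusted p = 7.40e-15). In BxPC3 cells it had 99.6, 101 and 112 CPM with THZ1 and 106, 107 and 109 CPM with DMSO, again overlapping (log2 difference -0.04, 95% interval -0.15 to 0.08). The null results for BxPC3 hold relative to the typical gene. With library size alone TNFAIP3 was at -0.43 and BCL3 at -0.38 in that line, and both were called lower. The exons of BCL3 share 65 bases with MIR8085, a counted microRNA gene on the same strand. How shared reads were assigned is not given in the sources used here.

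BCL3 scattered widely in SUIT2 cells. Its libraries had 28.7, 18 and 21.7 CPM with THZ1 and 23.7, 29.9 and 23.3 CPM with DMSO (log2 difference -0.15, edgeR adjusted p = 0.388). Without THZ1 replicate 1, the highest of its group, the difference was -0.36 and was called (edgeR adjusted p = 0.0216). TNFAIP3 was barely expressed in SUIT2 cells, at 7.28, 6.91 and 7.06 CPM with THZ1 and 6.8, 5.62 and 6.52 CPM with DMSO. Over all 10 members in SUIT2 cells, the 95% intervals of the log2 differences reached from -0.43 to 0.47, and 1 of 10, NFKB2, had an unadjusted p under 0.05.

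**Figure D2:**
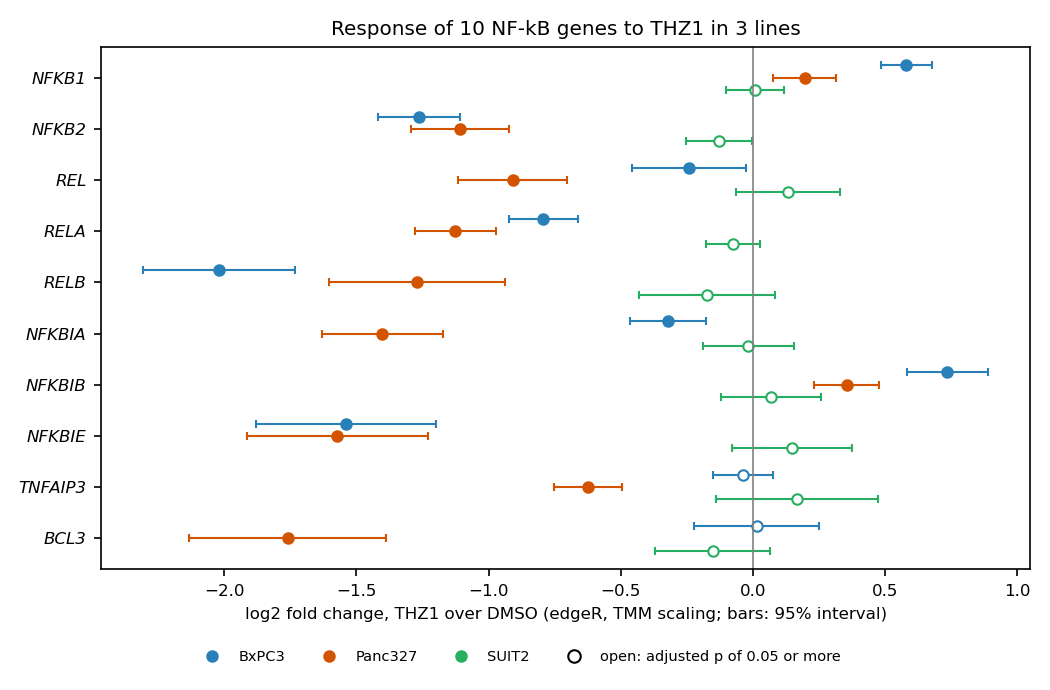
Log2 fold change of THZ1 over DMSO (horizontal axis) with its 95% interval for each gene and line. Filled points passed an edgeR adjusted p of 0.05 and open points did not. NFKB1 and NFKBIB lie right of 0 in BxPC3 and Panc327, RELB lies farthest left in BxPC3 (-2.02) and BCL3 in Panc327 (-1.76), and the SUIT2 points gather around 0.

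The responses of BxPC3 and Panc327 cells were then set against each other by testing the difference of the 2 log2 fold changes. BCL3 (difference 1.77), NFKBIA (1.08), REL (0.67) and TNFAIP3 (0.59) kept more of their transcript in BxPC3 cells, and RELB (-0.75) kept less. Of the 10 members, 7 responses were higher and 1 lower in BxPC3 than in Panc327 cells, against 36.3% of all genes called, 22.2% higher and 14.1% lower. The differences for NFKB1, NFKBIB and RELA were 0.38, 0.38 and 0.33. NFKB2 (difference -0.16, 95% interval -0.41 to 0.10) and NFKBIE (0.03, 95% interval -0.50 to 0.56) did not pass. The call for RELA was lost with DESeq2 (0.26), with only the 2 lines in the fit (0.20) and without THZ1-treated Panc327 replicate 3 (0.25). That for RELB was lost without THZ1-treated BxPC3 replicate 1 (-0.594) or THZ1-treated Panc327 replicate 2 (-0.575).

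Against SUIT2 cells, 2 responses of BxPC3 cells were higher and 6 lower (54.9% of all genes called, 27.3% higher and 27.6% lower). In Panc327 cells, 2 were higher and 8 lower than in SUIT2 cells (60.7% of all genes called, 28.3% higher and 32.4% lower). NFKBIE had the largest gap for Panc327, -1.72 (SE 0.209, edgeR adjusted p = 9.68e-12), and RELB for BxPC3, -1.85 (SE 0.2001, edgeR adjusted p = 2.74e-13). Of the BxPC3 calls against SUIT2, REL was lost with DESeq2 (-0.33) and without DMSO-treated BxPC3 replicate 1, THZ1-treated BxPC3 replicate 1 or 3, or DMSO-treated SUIT2 replicate 3 (-0.35 to -0.31), and NFKBIA with DESeq2 (-0.26) and without THZ1-treated SUIT2 replicate 3 (-0.23). The 3 comparisons share libraries, so they are given side by side and not as separate support. The 2 higher responses of Panc327, NFKB1 (0.19) and NFKBIB (0.29), were not called under several alternatives and turned to -0.12 and -0.02 with library size alone.

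The proportions of the subunits also shifted. Shares were computed from CPM per kilobase of merged exon length, since levels of different genes can be compared only per length. NFKB1 made up 62.1% ± 1.27 of the summed subunit level in THZ1-treated BxPC3 cells, against 33.7% ± 2.07 with DMSO, and 48.9% ± 2.21 in THZ1-treated Panc327 cells, against 27.7% ± 1.8 with DMSO. Its share in SUIT2 cells was 22.4% ± 1.27 with THZ1 and 21.1% ± 0.533 with DMSO, which differed by about the spread. RELA supplied 19% ± 0.534 with THZ1 and 26.7% ± 0.623 with DMSO in BxPC3 cells, 22.1% ± 2.16 and 31.5% ± 0.124 in Panc327 cells, and 43.5% ± 1.01 and 43.6% ± 0.519 in SUIT2 cells. RELB supplied 3.99% ± 0.747 with THZ1 and 13.1% ± 1.58 with DMSO in BxPC3 cells. Among the 3 IkB genes, NFKBIB took 55.1% ± 0.765 with THZ1 and 35% ± 2.39 with DMSO in BxPC3 cells, and 89.3% ± 0.187 with THZ1 and 70.4% ± 0.662 with DMSO in Panc327 cells. NFKBIA supplied 7.84% ± 0.504 of the IkB sum in THZ1-treated Panc327 cells, against 21% ± 0.364 with DMSO (all SD, n = 3 each). Shares within a family are free of the scaling but lean on the lengths used. With the longest transcript in place of merged exons, the NFKBIB share in BxPC3 cells was 46.6% with THZ1 and 28.3% with DMSO, and in Panc327 cells 86.4% and 64.7%.

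**Figure D3:**
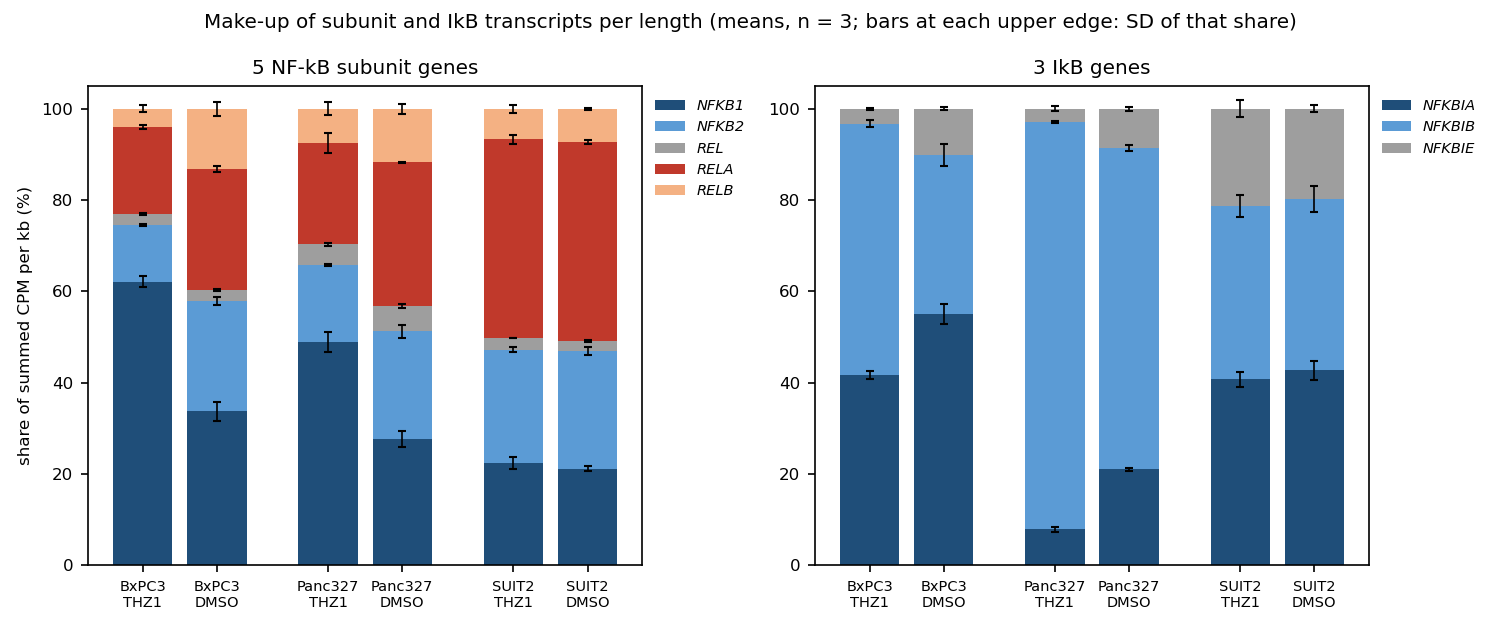
Share of each gene in the summed CPM per kilobase (vertical axis, percent, means of 3 libraries) of the 5 subunit genes (left) and the 3 IkB genes (right). The bar at the upper edge of each segment is the SD of that share. The NFKB1 segment is taller with THZ1 in BxPC3 and Panc327, the NFKBIB segment fills most of the IkB column in Panc327, and the 2 SUIT2 columns look alike.

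The family also differed between the lines without THZ1. TNFAIP3 had 106, 107 and 109 CPM in DMSO-treated BxPC3 cells and 90.2, 91.7 and 95.7 CPM in Panc327 cells, but 6.8, 5.62 and 6.52 CPM in SUIT2 cells. BxPC3 exceeded SUIT2 by 16.9-fold (log2 fold change 4.08, SE 0.0889, edgeR adjusted p = 1.46e-61). Panc327 exceeded SUIT2 by 14.6-fold (log2 fold change 3.87, SE 0.0904, edgeR adjusted p = 3.94e-59). NFKBIB ordered the lines differently. It averaged 38.5 ± 3.3 CPM in BxPC3, 95.1 ± 6.66 CPM in Panc327 and 23.7 ± 2.35 CPM in SUIT2 cells (SD, n = 3 each). The gap between Panc327 and SUIT2 was 3.996-fold (log2 fold change 1.999, SE 0.0748, edgeR adjusted p = 3.00e-42). No library of one line overlapped a library of another for either gene.

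BxPC3 cells had the most NFKB1, NFKBIA and RELB. NFKB1 averaged 148 ± 3.66 CPM there, 75.7 ± 4.16 CPM in Panc327 and 87.9 ± 3.01 CPM in SUIT2 cells, and NFKBIA averaged 61.8 ± 2.65, 28.9 ± 1.56 and 27.4 ± 0.852 CPM. Panc327 and SUIT2 did not differ beyond their spread for NFKBIA (log2 fold change 0.07, edgeR adjusted p = 0.405) or for RELB (0.09, edgeR adjusted p = 0.49). RELA was highest in SUIT2, at 159 ± 3.18 CPM, next to 102 ± 3.96 CPM in BxPC3 and 75.3 ± 3.12 CPM in Panc327 cells. REL was highest in Panc327, at 32.1 ± 1.45 CPM, next to 21.2 ± 0.864 CPM in BxPC3 and 19.4 ± 1.27 CPM in SUIT2 cells, and the last pair did not pass the test (edgeR adjusted p = 0.211). NFKBIE was the member that passed in no pair of lines, at 12.3 ± 0.791, 12.9 ± 0.224 and 13.8 ± 0.204 CPM in BxPC3, Panc327 and SUIT2 cells (SD, n = 3 each). Between BxPC3 and Panc327, 7 members were higher in BxPC3 and 2 lower (79.3% of all genes called, 38.6% higher and 40.7% lower). Between BxPC3 and SUIT2, 5 were higher and 1 lower (78.6%, 38.9% and 39.7% of all genes). Between Panc327 and SUIT2, 3 were higher and 4 lower (82.5%, 42.9% and 39.6% of all genes). Line and culture conditions cannot be told apart here.

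Per kilobase, each line had a different leading member. In DMSO-treated BxPC3 cells NFKBIA led with 26 ± 1.12 CPM per kilobase, ahead of NFKB1 with 23.6 ± 0.585, and their ranges did not overlap. With THZ1 the first places in BxPC3 went to NFKB1 with 35.3 ± 0.365 and NFKBIB with 27.7 ± 1.4 CPM per kilobase. NFKBIB led in Panc327 cells, with 52.4 ± 2.35 CPM per kilobase with THZ1 and 40.9 ± 2.87 with DMSO, well above NFKB1 at 13.9 ± 0.3002 and TNFAIP3 at 18.3 ± 0.564 in second place. RELA led in SUIT2 cells, with 27.5 ± 1.82 CPM per kilobase with THZ1 and 29 ± 0.582 with DMSO. REL was last in BxPC3 and Panc327 cells and TNFAIP3 in SUIT2 cells, at 1.4 ± 0.0368 CPM per kilobase with THZ1 and 1.25 ± 0.122 with DMSO (SD, n = 3 each). With THZ1 the range of REL overlapped that of NFKBIE in BxPC3 and that of BCL3 in Panc327 cells. Neighbours in the DMSO order whose ranges overlapped were RELA and NFKB2, NFKB2 and NFKBIB, and RELB and BCL3 in BxPC3. They were NFKBIA and NFKB1, BCL3 and RELB, and RELB and NFKBIE in Panc327, and NFKBIA and NFKBIB, and NFKBIB and BCL3 in SUIT2. Of 60 ranks, 42 were the same with the longest transcript as length. By that length NFKBIA took second place from NFKBIB in THZ1-treated BxPC3 cells (31.8 and 29.2 CPM per kilobase), and RELA took it from TNFAIP3 in DMSO-treated Panc327 cells (23.7 and 19.5 CPM per kilobase).

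**Figure D4:**
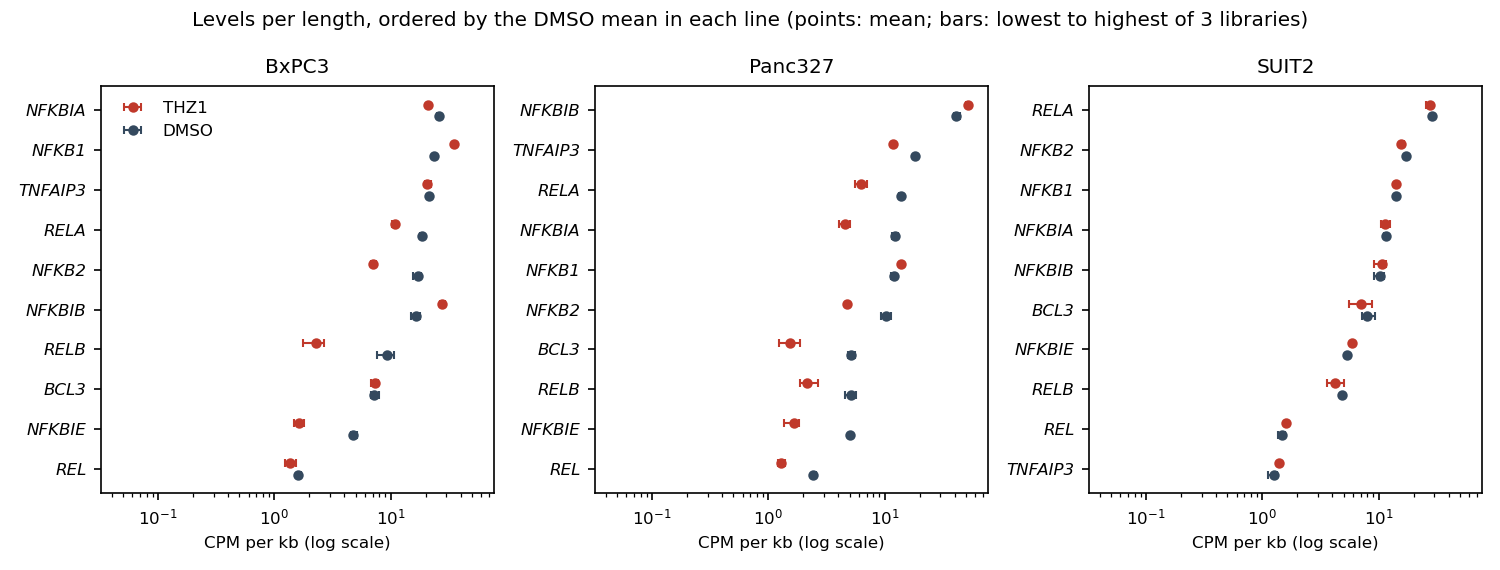
CPM per kilobase of merged exon length (horizontal log axis) of the 10 genes in each line, ordered by the DMSO mean. Points are means and bars run from the lowest to the highest of 3 libraries. The order differs between lines, with NFKBIA first in BxPC3, NFKBIB in Panc327 and RELA in SUIT2, and TNFAIP3 is last in SUIT2.

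Across the 18 libraries, NFKB2 and RELA followed each other most closely (Pearson r = 0.951 of log2(CPM + 1)), then NFKB2 and NFKBIE (0.893). NFKBIB ran against RELA (-0.919) and NFKB2 (-0.853). These values describe 6 groups that share line and treatment differences and carry no test. Among 9597 genes averaging at least 10 CPM, those most like NFKBIA included SOX13 (r = 0.990) and FAM206A (0.983), and those most like RELB were TDP1 (0.965), CDT1 (0.963) and ZNF646 (0.962), over the same 18 libraries.

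The surrounding pathway was described with 4 lists. Of all genes tested, 69.4% were called in BxPC3 (35.2% higher, 34.1% lower), 73.4% in Panc327 (35.6% higher, 37.8% lower) and 14.6% in SUIT2 cells (6.95% higher, 7.64% lower), beside which the counts of each list are to be read. In SUIT2 cells target genes had the lowest median of the 4 lists, though not without genes of at most 3 counts per library. Ligands and receptors had the lowest in BxPC3 and Panc327 cells. In BxPC3 cells 1 of 17 tested rose and 14 fell, with a median log2 fold change of -1.10 beside 0.00 for all genes. In Panc327 cells 1 rose and 11 fell, with a median of -1.63 beside -0.01 for all genes. In SUIT2 cells 0 rose and 3 fell, with a median of -0.02. IL1A and IL1B, the IL-1 cytokines, averaged 28.8 ± 3.32 and 30.7 ± 3.6 CPM in THZ1-treated BxPC3 cells, against 128 ± 5.79 and 122 ± 0.4996 CPM with DMSO (log2 fold changes -2.15 and -1.98). TNFRSF1A, the main TNF receptor, averaged 8.44 ± 2.06 CPM in THZ1-treated Panc327 cells, against 96.7 ± 5.83 CPM with DMSO, a 11.4-fold fall (log2 fold change -3.51, SE 0.102, edgeR adjusted p = 4.40e-50). IL1R1, the IL-1 receptor, fell by 1.91 on the log2 scale in the same cells. In SUIT2 cells EDAR (-0.36) and TNFRSF1B (-0.27), both receptors of the TNF family, fell, the second neither with DESeq2 (-0.27) nor without DMSO replicate 1 or 3 or THZ1 replicate 2 or 3 (-0.28 to -0.24). TNF itself, LTA, TNFSF14 and CD40LG did not pass the filter on low counts and were not tested.

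Adaptors and kinases between the receptors and IkB fell more often than they rose. Of 31 tested, 9 rose and 18 fell in BxPC3 (median -0.42), 8 rose and 20 fell in Panc327 (median -0.61), and 0 rose and 4 fell in SUIT2 cells (median 0.02). TAB1, a subunit of the TAK1 kinase complex, averaged 5.14 ± 0.653 CPM with THZ1 and 24.9 ± 0.953 CPM with DMSO in BxPC3 cells, and 5.79 ± 0.46 and 28.7 ± 1.82 CPM in Panc327 cells (log2 fold changes -2.27 and -2.30). MAP3K14, the NIK kinase that starts processing of the NFKB2 precursor, fell by 2.73 on the log2 scale in Panc327 cells, and RIPK1, a kinase of the TNF receptor complex, fell by 1.76 in BxPC3 cells. Among those that rose were TAB2 (0.87) and UBE2N (0.84) in BxPC3, and IRAK1 (0.58) and SHARPIN (0.49) in Panc327 cells, though SHARPIN was not called with library size alone (0.16). In SUIT2 cells IRAK4 (-0.40) and IRAK2 (-0.34), kinases of the IL-1 route, fell, IRAK4 not without DMSO replicate 2 (-0.32) or THZ1 replicate 2 (-0.33).

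The other inhibitors and atypical IkB genes were mixed, with 10 of 18 tested higher and 7 lower in BxPC3 (median 0.28), 7 and 7 in Panc327 (median -0.16) and 0 and 1 in SUIT2 cells (median 0.08). The Panc327 and SUIT2 counts were near the share of all genes called. ZC3H12A, which encodes an RNase that degrades inflammatory mRNAs, rose to 91.7 ± 5.35 CPM in THZ1-treated BxPC3 cells, against 33.1 ± 1.55 CPM with DMSO (log2 fold change 1.47). In Panc327 cells ZC3H12A averaged 26.5 ± 2.26 CPM with THZ1 and 13.9 ± 0.367 CPM with DMSO (log2 fold change 0.92). NFKBIZ, an atypical nuclear IkB gene, rose in Panc327 cells (0.999), and RNF11, a partner of A20, rose in BxPC3 cells (0.85). NFKBIL1 (-2.06) and NKIRAS2 (-0.73) fell in BxPC3, and NKIRAS1 (-1.66) and NKRF (-1.60) in Panc327 cells, the NKIRAS genes encoding Ras-like proteins that bind IkB. In SUIT2 cells NKIRAS2 (-0.25) was the gene that fell, and not without DMSO replicate 1 or 2 or THZ1 replicate 2 (-0.23 to -0.22).

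Known target genes other than the members did not move one way. Of 30 tested, 14 rose and 10 fell in BxPC3 (median 0.34), 9 rose and 11 fell in Panc327 (median -0.06), and 3 rose and 3 fell in SUIT2 cells (median -0.13). Apart from the rises in BxPC3, these counts in BxPC3 and Panc327 were near the share of all genes. IER3, an immediate early survival gene, averaged 474 ± 25.1 CPM in THZ1-treated BxPC3 cells, against 122 ± 5.61 CPM with DMSO, a 3.87-fold rise (log2 fold change 1.95, SE 0.0532, edgeR adjusted p = 1.09e-42). GADD45B, a stress response gene, rose in all 3 lines (1.67 in BxPC3, 1.23 in Panc327, 0.31 in SUIT2), in SUIT2 not without DMSO replicate 3 or THZ1 replicate 1 or 3 (0.26 to 0.28). TRAF1, a signalling adaptor, fell by 2.40 and IRF1, an interferon regulatory factor, fell by 1.54 on the log2 scale in BxPC3 cells. PTGS2, which encodes cyclooxygenase-2, averaged 65 ± 2.32 CPM with THZ1 and 275 ± 3.88 CPM with DMSO in Panc327 cells (log2 fold change -2.08). PLAU, the urokinase gene, fell in Panc327 (-1.06) and SUIT2 cells (-0.28), and the cytokine IL32 rose in Panc327 cells (0.87). BIRC3, an inhibitor of apoptosis, fell (-0.46) and the proteoglycan SDC4 rose (0.23) in SUIT2 cells. With library size alone the medians in BxPC3 were -1.50, -0.81, -0.12 and 0.00 for the 4 lists in this order, beside -0.35 for all genes, and in Panc327 -1.95, -0.94, -0.48 and -0.32, beside -0.34. In SUIT2 cells 5 of the 17 ligands and receptors and 8 of the 30 target genes had at most 3 counts in every library. Without them the TMM medians were -0.08 and -0.07, so ligands and receptors then had the lowest median there too. In Panc327 cells this held for 2 ligands and receptors and 4 target genes, with medians of -1.72 and 0.00 without them.

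**Figure D5:**
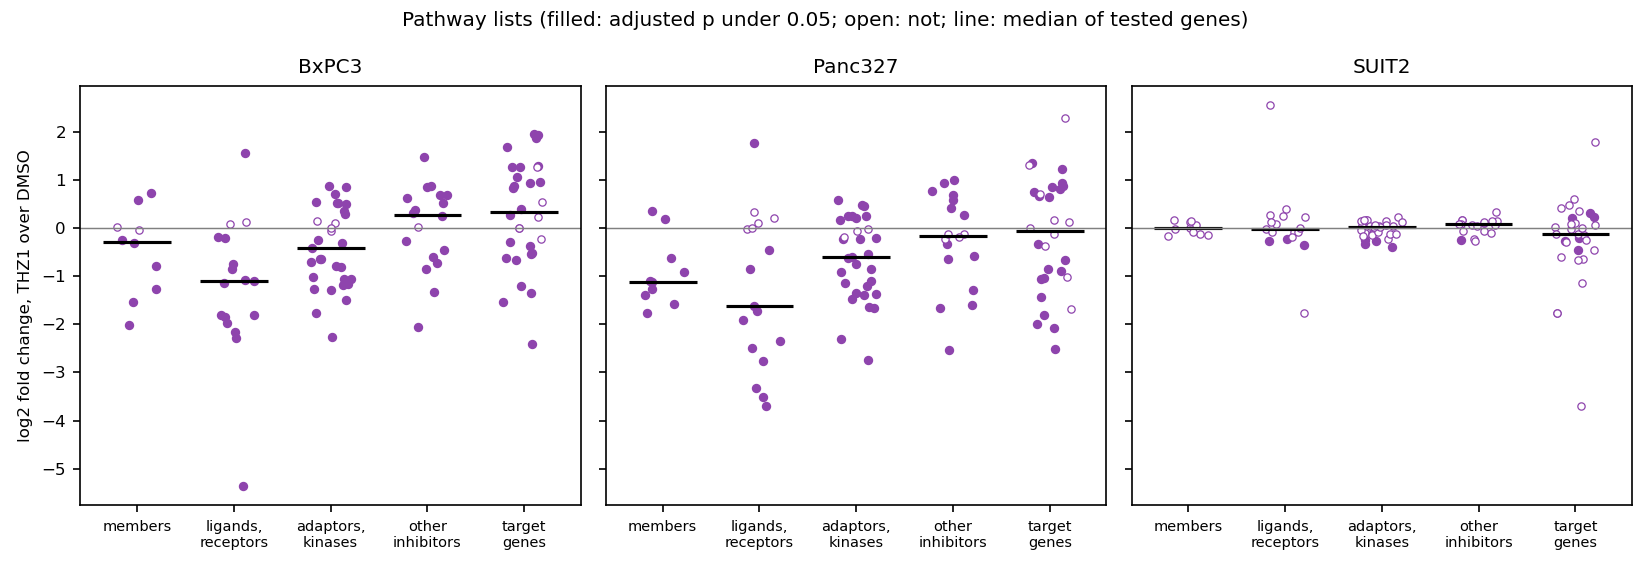
Log2 fold change of THZ1 over DMSO (vertical axis) for each tested gene of the 10 members and the 4 pathway lists, by line. Filled points passed an edgeR adjusted p of 0.05, open points did not, and lines mark medians. Ligands and receptors have the lowest medians in BxPC3 (-1.10) and Panc327 (-1.63), target genes spread on both sides of 0, and most SUIT2 points are open; the open SUIT2 points beyond 1 on either side, such as PTGS2 and IL1B, are genes with at most 3 counts per library.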

How the data were processed

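The authors deposited unnormalized counts for each library, covering 26485 symbols plus 5 summary entries (21.3% to 64.6% of records, left out). Per the submitters' processing notes the tools were bcl2fastq 1.8.4, TopHat2 2.1.0 and HTSeq 0.6.1 with hg38. The annotation, counting mode and strand setting behind the counts are not given in the sources. Per the labels' protocols, RNA came from an RNeasy kit and libraries from TruSeq RNA v2.

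Counts were tested in R 4.3.3 with edgeR 4.0.16 (robust quasi-likelihood, TMM, 6 group means, 12 residual degrees of freedom). filterByExpr (minimum count 10, minimum total 15) kept 14011 genes, over all of which p-values were adjusted by Benjamini-Hochberg, with a threshold of 0.05. Each SE was obtained as the size of the log2 fold change over the root of its F statistic. Gene lengths and positions come from GENCODE 29. DESeq2 1.42.0, other scalings, no filter, fewer lines, a replicate block and leaving out each library were the alternatives. The test was first tried on simulated data with few known changes in a single group. That setting differed from these data, so it does not show how the test behaves here. Every pair of libraries within a group differed by more than sampling noise, some only slightly (chi-square per degree of freedom 1.25 to 2.52). The common dispersion was 0.0012, so the spread behind the p-values was small.

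The members and lists were chosen with earlier results of these data known. The named pathway genes are, per list and THZ1 comparison, up to 2 per direction with the largest change among called genes averaging at least 10 CPM in a group, with no overlap between groups. A gene similar to NFKBIA is not reported here.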

Additional observations from a re-analysis of the deposited data

Results flagged for a closer look

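The results listed here are those in which the response of a member to THZ1 differed between 2 lines by the edgeR test of the difference itself, adjusted over all genes. Each value is the log2 response of the first line minus that of the second. Between BxPC3 and Panc327 they were BCL3 (1.77), NFKBIA (1.08), REL (0.67), TNFAIP3 (0.59), NFKB1 (0.38), NFKBIB (0.38), RELA (0.33) and RELB (-0.75). Between BxPC3 and SUIT2 they were NFKBIB (0.67), NFKB1 (0.57), NFKBIA (-0.30), REL (-0.37), RELA (-0.72), NFKB2 (-1.14), NFKBIE (-1.69) and RELB (-1.85), with REL and NFKBIA not called by DESeq2 (-0.33 and -0.26). Between Panc327 and SUIT2 they were NFKBIB (0.29), NFKB1 (0.19), TNFAIP3 (-0.79), NFKB2 (-0.98), REL (-1.04), RELA (-1.05), RELB (-1.10), NFKBIA (-1.38), BCL3 (-1.61) and NFKBIE (-1.72). Among the THZ1 groups, the share of records from reads with several alignments was highest in Panc327 cells (52.8% ± 1.81) and intermediate in BxPC3 cells (22.8% ± 0.805). It was lowest in SUIT2 cells (12.9% ± 0.902), and its part in these differences was not tested.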

How the results depend on the processing

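Of the members' values under the alternatives, 1192 kept their direction and side of the threshold, 34 lost and 4 gained a call, and 30 changed sign. With library size alone the members higher in Panc327 numbered 0 (1 with no filter, 2 with TMM), and the Panc327 responses higher than in SUIT2 numbered 0 (0 with no filter). The share of called genes that were higher moved to 26.8% in BxPC3 and 31.0% in Panc327 with library size alone, against 50.8% and 48.5% with TMM. For the difference between BxPC3 and Panc327 it moved to 49.6% with RLE and 40.8% with 2 lines in the fit, against 61.1%. Log2 values that changed sign with library size alone were NFKB1 in Panc327 (-0.13), BCL3 in BxPC3 (-0.381) and NFKB1 in SUIT2 (-0.00786). So did the differences of BCL3 between BxPC3 and SUIT2 (-0.212), NFKB1 (-0.122) and NFKBIB (-0.0221) between Panc327 and SUIT2, and NFKBIE between BxPC3 and Panc327 (-0.0372). The remaining sign changes were of uncalled values near 0. They were TNFAIP3 in BxPC3 with RLE (0.00282) and DESeq2 (0.00267), BCL3 in BxPC3 with no filter (-0.0175) or that line alone (-0.0328), and NFKB1 in SUIT2 with that line alone (-0.00116). The NFKBIE difference between BxPC3 and Panc327 turned to -0.044 with RLE, -0.0431 with DESeq2 and -0.104 with 2 lines. NFKB2 between DMSO-treated BxPC3 and SUIT2 turned to 0.00517 with RLE, 0.0048 with DESeq2 and 0.00709 with 2 lines. Leaving out 1 library gave -0.0366 to 0.0789 for BCL3 in BxPC3, and in SUIT2 -0.00846 to 0.0352 for NFKB1, -0.000835 to 0.16 for NFKBIB and -0.093 to 0.0304 for NFKBIA. It gave -0.0834 to 0.106 for the NFKBIE difference and -0.0648 to 0.0547 for the NFKB2 one. The number of genes called in SUIT2 was 1348 with DESeq2 and 1353 to 1625 without 1 library, against 2044. Members lower in SUIT2 then ran from 0 to 1, BxPC3 responses lower than in Panc327 from 0 to 1, and Panc327 responses higher than in SUIT2 from 0 to 2. The cause of these shifts was not tested. Depth limits the members with few counts, such as NFKBIE with as few as 17 in a library.

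With the replicate block 9692, 10249 and 1952 genes were called in BxPC3, Panc327 and SUIT2, and no member's call changed. Same-numbered libraries did not deviate together (r -0.135 to 0.0647 over 9 pairs, 4 best with their own number), so the numbers were not taken as pairs.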

Other observations

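The higher NFKBIB level of DMSO-treated Panc327 cells was shared by most genes around it on chromosome 19, a pattern chosen after its values were seen. Of 31 counted genes within 500 kb of NFKBIB, 26 were tested. Between Panc327 and SUIT2 cells 24 of the 26 were higher in Panc327 and 2 lower (LGALS4 and GMFG), with a median log2 fold change of 1.64, against 42.9% and 39.6% of all genes. Between BxPC3 and Panc327 cells 1 was higher in BxPC3 and 23 lower, with a median of -1.29, against 38.6% and 40.7% of all genes. Between BxPC3 and SUIT2 cells 10 were higher and 8 lower, with a median of 0.16, against 38.9% and 39.7% of all genes, so the neighbours did not share the higher NFKBIB level of BxPC3 (0.70). Among the neighbours were EIF3K (1.64), PAF1 (1.63), MRPS12 (2.02) and SARS2 (1.69) between Panc327 and SUIT2.

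TNFAIP3 had 2 tested neighbours within 500 kb, too few to describe a pattern. They, PERP and ARFGEF3, were both lower in BxPC3 than in SUIT2 cells (-0.50 and -2.43), where TNFAIP3 was higher (4.08). Both were higher in Panc327 than in SUIT2 cells (0.30 and 1.73), where TNFAIP3 was higher too (3.87).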
